A study of Mus musculus with 3 samples.

Results

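The cells described here are T cells of the mouse aorta that carry the scavenger receptor transcript Cd163l1, a transcript known from gamma-delta T cells that make interleukin 17. They were chosen by transcripts alone, from barcodes with at least 200 detected genes and at most 10% of their unique molecular identifiers (UMIs, each standing for 1 captured transcript) from mitochondrial genes. A barcode was taken with at least 1 UMI of Cd163l1, at least 1 UMI of Cd3d, Cd3e and Cd3g together, and 0 UMIs of Cd8a, Cd8b1 and Cd79a. This gate held 59 of 5465 barcodes. The control library, from a pool of 5 C57Bl/6 mice on chow, gave 4 of 778. The room air library, from 5 ApoE-/- mice on the C57Bl/6 background, fed a high fat (Western) diet for 16 weeks without smoke, gave 26 of 1848. The aneurysm library, from 4 ApoE-/- mice given the same diet and cigarette smoke for 16 weeks and taken because a dilatation was measurable, gave 29 of 2839. Suprarenal aortas were pooled within a group before CD45+CD31- and CD45-CD31+ cells were sorted (the cell type label names CD45+ leukocytes alone), and a further group in the labels, exposed to smoke, was not analysed here. Aneurysm against room air therefore joins smoke with the selection of dilated aortas. Each group is 1 library, so no value below has a replicate, no test was possible, and library and group cannot be told apart. Intervals are exact 95% intervals that cover counting error only.

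Gamma-delta T cells carry a receptor of a gamma and a delta chain in place of the alpha and beta chains of CD4 and CD8 T cells. One branch leaves the thymus already set to make interleukin 17 under transcription factors such as Sox13 and Maf, and settles in skin, lung, fat and other tissues as a long-lived resident population. These cells answer interleukins 1, 18 and 23 through Il1r1, Il18r1 and Il23r, without needing antigen first. Blk, a Src-family kinase otherwise known from B cells, is needed for their normal development.

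Control held 2568192 UMIs, the room air library 9998517 and the aneurysm library 16698309. Levels are given as CPM, the UMIs of a gene for every 1000000 UMIs of its cells. Apoe, the targeted gene, was at 10539.7 CPM over control barcodes, at 17.1 CPM with room air and at 12.9 CPM with aneurysm. Of their barcode sequences, 4 were shared by control and room air, 0 by control and aneurysm, and 5 by room air and aneurysm, including 1 room air cell of the gate. Free RNA, which is transcript released by other cells and caught with a T cell, differed between the libraries: a median B cell carried C1qa, C1qb and C1qc, genes of macrophages, at 723 CPM in control, 2110.4 CPM with room air and 581 CPM with aneurysm.

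The barcodes of the gate differed widely in UMIs, as the plot of Cd3 against total UMIs shows. Of the 26 room air cells, 9 had over 5000 UMIs (6621 to 22754, median 10374), and these held 71.3% of all UMIs of the room air cells. Among those 9, 8 had a single Cd163l1 UMI and 0 had a UMI of Blk or Il18r1. Their median cell had 2 Cd3 UMIs beside 67 UMIs of C1qa, C1qb and C1qc, 110 of the macrophage and monocyte gene Lyz2 and 385 of Cd74, the invariant chain of antigen-presenting cells. The 8 with a single Cd163l1 UMI had 1 to 6 Cd3 UMIs and went against the label. The other 1, of 10374 UMIs, had 10 UMIs of Cd163l1, more than any other room air cell of the gate, and 18 of Cd3, beside 29 of the C1q genes. In aneurysm 3 of 29 cells had over 5000 UMIs (5380, 9109 and 17156), with 31.9% of the UMIs, and 2 of the 3 had Blk or Il18r1. All 3 carried many UMIs of these myeloid or antigen-presenting cell genes too. The cell of 5380 UMIs had 64 of the C1q genes and that of 9109 had 524 of Cd74, beside 11 and 17 of Cd3. The cell of 17156 UMIs had 1 UMI each of Cd163l1 and Cd3, 87 of the C1q genes and 528 of Cd74. It had 0 UMIs of Blk and Il18r1 and also went against the label. The doublet scores placed 0 of these 12 barcodes among the highest.

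The 17 cells of at most 5000 UMIs in room air had 1812 to 3498 UMIs (median 2392), 1 to 6 UMIs of Cd163l1 (median 3), 3 to 23 of Cd3 (median 11) and 1 to 8 of the C1q genes (median 4), and 13 had Blk or Il18r1. The 26 in aneurysm had 1979 to 3807 UMIs (median 2577), 1 to 11 UMIs of Cd163l1 (median 3), 4 to 21 of Cd3 (median 13) and 0 to 5 of the C1q genes (median 1.5), and all 26 had Blk or Il18r1. The limit of 5000 UMIs was chosen after these values were seen, and it does not divide the cells cleanly. Above it, 2 aneurysm cells had 11 and 17 Cd3 UMIs, and below it 1 control cell had 1 Cd3 UMI beside 69 of the C1q genes. Each comparison is therefore given for all cells of the gate and for the cells of at most 5000 UMIs, called the compact cells below.

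**Figure D1:**
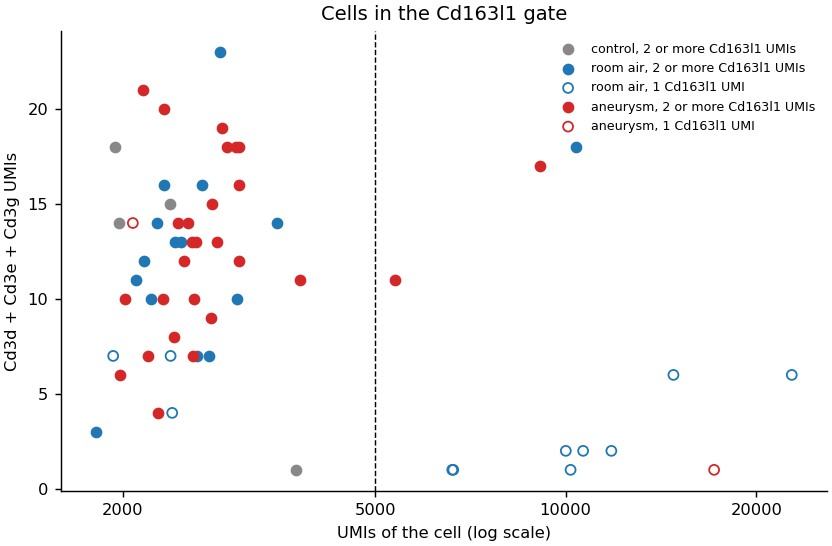
Each point is 1 of the 59 cells of the gate. The x axis gives its UMIs on a log scale, the y axis its UMIs of Cd3d, Cd3e and Cd3g, colours the library, open points a single Cd163l1 UMI and the dashed line 5000 UMIs. Of the 9 room air cells right of the line, 8 are open points with few Cd3 UMIs.

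Cd163l1 (chr7:140218267-140231145, plus strand, protein coding, GENCODE M21 on GRCm38, the mm10 assembly of the files) was the gate's own gene. It summed to 55 UMIs (1315 CPM) in the compact room air cells and 102 UMIs (1508 CPM) in those of aneurysm. A UMI of it was found in 3 of 291 room air B cells (1.03%, Clopper-Pearson 0.213% to 2.98%, median 2856 UMIs), in 0 of 138 in control and in 0 of 621 in aneurysm, which allows shares up to 2.64% and 0.592%. Among macrophages of the aneurysm library, 2 of 559 barcodes had a Cd163l1 UMI (0.358%, Clopper-Pearson 0.0434% to 1.29%). Room air macrophages had it in 2 of 300 barcodes (0.667%, Clopper-Pearson 0.0808% to 2.39%). Control macrophages had it in 0 of 332, which allows a share up to 1.10%. Outside the gate, 29 further barcodes of room air and 13 of aneurysm had Cd163l1, of which 22 and 8 had 1 UMI. Its neighbour on chromosome 7 is 5830411N06Rik (chr7:140247284-140300736, plus strand, protein coding), which encodes the related T cell scavenger receptor SCART2. It had 0 UMIs in all 59 cells, whereas Cd163l1 was in each because the gate required it. Over all kept barcodes, which the gate did not choose, Cd163l1 was found in 5 of control, 55 of room air and 42 of aneurysm, and 5830411N06Rik in 0, 2 and 4. The promoter windows of the pair, 250 bases before to 50 after the start site from RefSeq (GRCm38.p6), are printed because these neighbours of a family were found in such different numbers of barcodes. Capitals mark the 50 bases from the start site on.
Cd163l1, chr7:140218017-140218316, plus strand: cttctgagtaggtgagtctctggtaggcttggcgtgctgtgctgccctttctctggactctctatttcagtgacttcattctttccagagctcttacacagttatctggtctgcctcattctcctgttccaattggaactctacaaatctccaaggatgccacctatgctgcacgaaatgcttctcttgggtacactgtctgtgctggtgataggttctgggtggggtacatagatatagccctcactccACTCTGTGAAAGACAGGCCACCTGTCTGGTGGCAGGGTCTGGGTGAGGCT
5830411N06Rik, chr7:140247051-140247350, plus strand: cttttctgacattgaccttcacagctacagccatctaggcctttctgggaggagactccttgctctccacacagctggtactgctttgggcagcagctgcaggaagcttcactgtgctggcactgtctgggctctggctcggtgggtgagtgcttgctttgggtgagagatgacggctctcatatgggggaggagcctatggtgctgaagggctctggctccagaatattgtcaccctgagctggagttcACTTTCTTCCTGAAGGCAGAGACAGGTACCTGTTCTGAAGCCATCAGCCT
The 5830411N06Rik window is that of the first of its 3 listed starts. G and C made up 50.7% of the bases of the Cd163l1 window and 55% of those of the 5830411N06Rik window, beside a median of 52.7% over 32851 windows, so both lay near the middle.

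The genes that make up the label were each detected among the compact cells of room air and of aneurysm, though often not in the same cell. This is a description, since such genes marked the cells to begin with. Blk (chr14:63372836-63417037, minus strand) was at 526 CPM in room air against 651 CPM in aneurysm, in 11 of 17 and 23 of 26 cells. In the same libraries CD8 T cells had 3.99 and 0 CPM of Blk and B cells 93.5 and 71.6 CPM. Il18r1 (chr1:40465552-40500854, plus strand), the ligand-binding chain of the interleukin 18 receptor, was at 669 CPM in room air against 592 CPM in aneurysm, beside 83.7 and 68.9 CPM in CD8 T cells. It was in 11 of 17 and 19 of 26 compact cells. Among other cells of at most 5000 UMIs, it was in 5 of 14 and 26 of 51 NK cells. In CD4 T cells Il18r1 was in 9 of 45 and 9 of 58. 5430421N21Rik (chr15:101485130-101491512, minus strand) is the keratin gene Krt83 in the annotation. It was at 239 CPM in room air against 340.1 CPM in aneurysm, in 6 of 17 and 9 of 26 cells. At the same limit it was in 7 of 45 and 0 of 58 CD4 T cells and in 5 of 272 and 5 of 296 CD8 T cells.

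The genes of interleukin 17 programming differed widely in level. Maf was at 406 CPM in room air against 518 CPM in aneurysm, in 11 and 19 cells. Il17re, a chain of the interleukin 17C receptor, had 3 and 11 UMIs. Counts this low leave most single cells at 0 whatever they express. Il23r had 2 and 1 UMIs, Il1r1 4 and 3, Sox13 1 and 3, and Zbtb16 2 and 4. Taking 10 markers of this programme together, 10 were detected in both libraries and their summed level was 1649.5 and 1982 CPM. Most of that sum came from Maf, Ltb4r1 (406 and 725 CPM) and Kcnk1 (287 and 355 CPM). In CD8 T cells the 10 markers summed to 102 and 41.3 CPM and in CD4 T cells to 275 and 88.1 CPM. They summed to 179 and 97.0 CPM in B cells and to 136 and 25.9 CPM in NK cells. The constant and variable genes of the T cell receptors were not analysed here, so the gamma-delta receptor itself was not checked.

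Markers of other lymphocytes were at differing levels. Summed NK cell markers were at 23.9 and 44.4 CPM in the compact cells, against 6117 and 11641 CPM in NK cells, with Ncr1, Klrb1c and Eomes at 0 UMIs. The CD4 T cell markers summed to 215 and 177 CPM, against 1284 and 1278 CPM in CD4 T cells and 116 and 94.1 CPM in CD8 T cells, with Foxp3 of regulatory T cells at 0. Of the 6 CD4 T cell markers only 1 was detected in the compact cells of room air and 3 in those of aneurysm. Cd4 itself, which the gate did not exclude, was in 0 of 17 and 1 of 26 compact cells. The markers of group 2 innate lymphoid cells summed to 47.8 and 177 CPM, against 194 and 94.4 CPM in CD4 T cells, 59.8 and 60.9 CPM in CD8 T cells, 217 and 109.9 CPM in NK cells and 70.6 and 22.7 CPM in B cells. In aneurysm this sum was thus higher than in those classes, but only 2 of the 6 genes were detected in the compact cells there. Most of the sum came from Gata3, at 11 UMIs in 9 cells, and Il1rl1 was at 0. It therefore describes mainly 1 gene and not the list as a whole. The summed list of cytotoxic and type 1 genes was at 1148 and 636 CPM, against 18124 and 8119.6 CPM in CD8 T cells. The list of naive and circulating genes, such as the lymph node homing receptor Ccr7, was at 669 and 562 CPM, against 4695 and 5656 CPM.

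**Figure D2:**
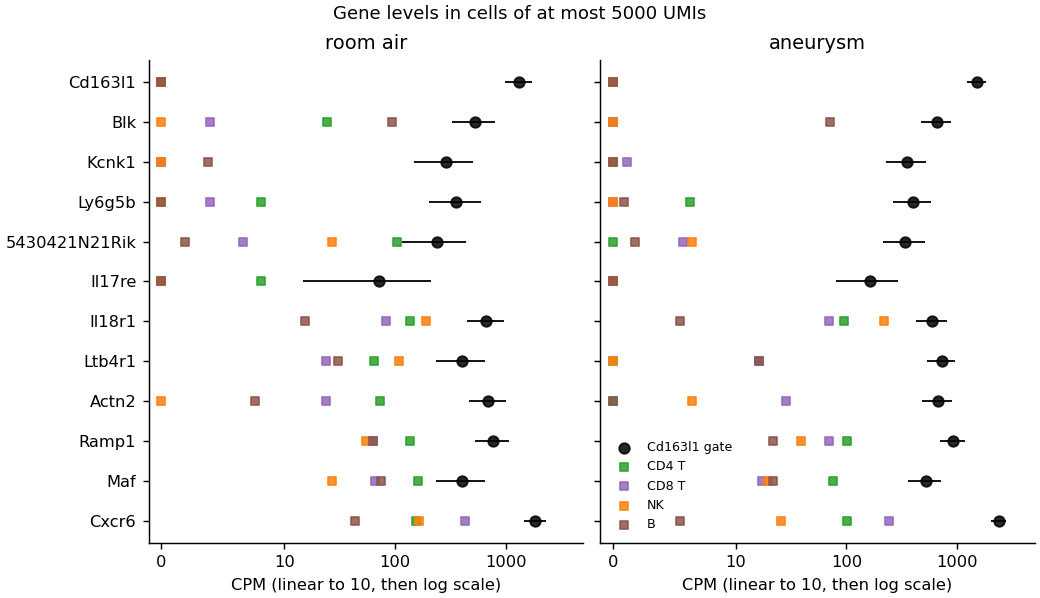
CPM of 12 genes in the compact cells (black circles with exact Poisson 95% intervals) and in CD4 T, CD8 T, NK and B cells of at most 5000 UMIs (squares), in room air and aneurysm. The axis is linear up to 10 CPM and logarithmic beyond. Cd163l1 is 0 outside the gate because those cells were chosen without it, and the circle lies right of the squares for each gene.

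Further genes were higher in these cells than in CD4 and CD8 T cells of the same library summed together. This is a description, since the cells were chosen by one such gene. CD8 T cells gave most UMIs of that sum, so a fold over CD4 T cells alone can differ. At up to 5000 UMIs they held 752535 UMIs in room air and 870981 in aneurysm, against 123860 and 158874 in CD4 T cells. Ly6g5b, of the Ly6 family, was 78.6-fold higher in the compact cells of room air, at 359 CPM. No interval is given with the folds here, and a large fold can rest on few UMIs in the other T cells, so their size is uncertain. Actn2, an actin crosslinker best known from muscle, was 22.5-fold higher in room air and 27.4-fold in aneurysm. Ramp1, a subunit of the receptor for the neuropeptide CGRP, was 10.3-fold and 12.4-fold higher. F2r, the thrombin receptor PAR1, was 9.09-fold and 9.60-fold higher. Aqp3, an aquaporin that also passes glycerol, was 14.4-fold and 21.3-fold higher, and Serpinb1a, an inhibitor of neutrophil serine proteases, 14.2-fold and 39.3-fold. Podnl1 and Ltb4r1, the leukotriene B4 receptor, were 15.4-fold and 13.7-fold higher in room air. The order of the genes differed between the libraries, while each of the 8 named here was above the other T cells in both. These genes were picked by this same ratio in room air or after values were seen, so their place above the other T cells in room air was set by that choice. For all cells of the gate in room air, the 12 leading genes by the same rule also included Ifi205 and Olfm1. In the compact cells of room air these had 1 and 0 UMIs, against 42 and 23 in the whole gate.

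The compact cells also differed among themselves. With a 5430421N21Rik UMI (6 room air and 9 aneurysm cells), Ltb4r1 was at 293 CPM in room air against 1045 CPM in aneurysm, and without it (11 and 17 cells) at 461 and 560 CPM. Maf was at 807 CPM with and 213 CPM without it in room air, and at 305 CPM with and 627 CPM without it in aneurysm. Neither gene kept 1 order over both libraries. Cxcr6 lay between 1703 and 2395 CPM in all 4 sets.

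Some cells with several of the marker genes lay outside the gate. A score counted how many of Blk, Il18r1, 5430421N21Rik, Ltb4r1, Kcnk1 and Il17re had a UMI. Among compact cells, 11 of 17 in room air (64.7%) and 24 of 26 in aneurysm (92.3%) had 3 or more. With 1 Cd163l1 UMI, just inside the limit, 2 of 3 and 1 of 1 did. Just outside it, among cells that passed all else but had 0 Cd163l1 UMIs, 7 of 248 (2.82%) and 13 of 303 (4.29%) did. Cells with 3 or more of these genes thus lay outside the gate in both libraries, as well as within it.

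The intervals of the share of these cells overlapped between room air and aneurysm. They were 0.514% of kept barcodes in control (Clopper-Pearson 0.140% to 1.31%), 1.41% of those with room air (0.921% to 2.05%) and 1.02% of those with aneurysm (0.685% to 1.46%). The compact cells were 0.613%, 1.53% (0.896% to 2.45%) and 1.68% (1.10% to 2.45%) of the barcodes of at most 5000 UMIs. The order of room air and aneurysm thus turned with the limit on UMIs, and the intervals overlapped both ways. Among barcodes with a Cd3 UMI and no Cd79a, they were 2.65%, 3.09% and 2.90%, and the compact cells 3.25%, 3.06% and 4.05%. After each cell was thinned to 1500 UMIs, which left out 130 control barcodes and 0 of the others, the expected shares of kept barcodes were 0.478%, 1.06% and 0.930%. The sort fixed how many leukocytes stood against endothelial cells, so a share of all barcodes can move with the sort.

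**Figure D3:**
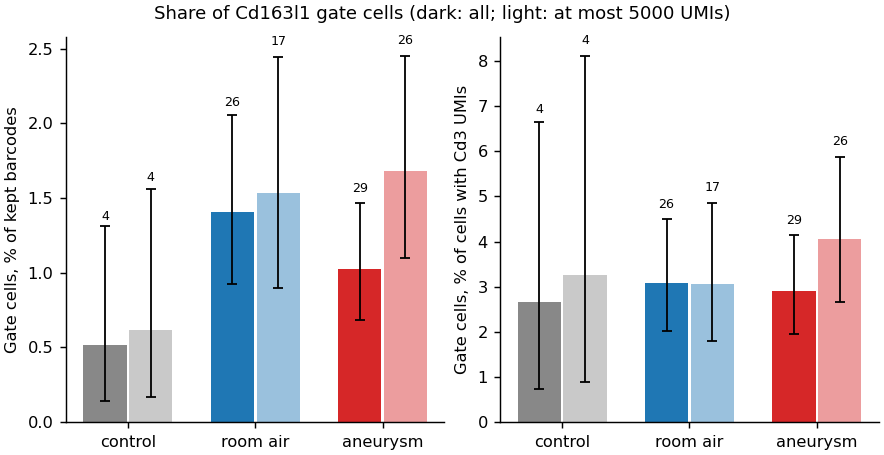
Bars give the gate cells as a percentage of kept barcodes (left) and of barcodes with Cd3 UMIs and no Cd79a (right), dark for all and light for barcodes of at most 5000 UMIs, with exact Clopper-Pearson 95% intervals and the number of gate cells above. The intervals of room air and aneurysm overlap in each pair.

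Aneurysm was compared with room air gene by gene on summed UMIs. A gene was measured with at least 20 UMIs over the 2 sums, and called when its CPM differed by at least 1.5-fold. Over all cells of the gate 1865 genes were measured, of which 355 were higher in aneurysm (19.0%) and 330 lower (17.7%), and the median log2 ratio was 0.05. In the compact cells 872 were measured, with 117 higher (13.4%) and 117 lower (13.4%), and the median log2 ratio was 0.04. Subtracting an estimate of free RNA from the sums of the whole gate gave 653 higher and 243 lower genes, so the balance of directions moved with that step. The counts of each gene list below are to be read against these shares of all measured genes.

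Blk, Il18r1 and 5430421N21Rik, the markers that the gate did not use, were called higher in aneurysm over the whole gate and not in the compact cells. Over the whole gate Blk was 3.07-fold, Il18r1 2.46-fold and 5430421N21Rik 3.96-fold higher in aneurysm. In the compact cells 0 of the 3 were called, with ratios of 1.24 (95% interval 0.726 to 2.17) for Blk, 0.884 (95% interval 0.532 to 1.49) for Il18r1 and 1.42 (95% interval 0.651 to 3.35) for 5430421N21Rik. Cd163l1 and Cd3g chose the cells, so their levels are a description from which nothing is read. Over the whole gate Cd163l1 was at 501 CPM in room air against 1108 CPM in aneurysm and Cd3g, a chain of the T cell receptor complex, at 899 CPM in room air against 2206 CPM in aneurysm.

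**Figure D4:**
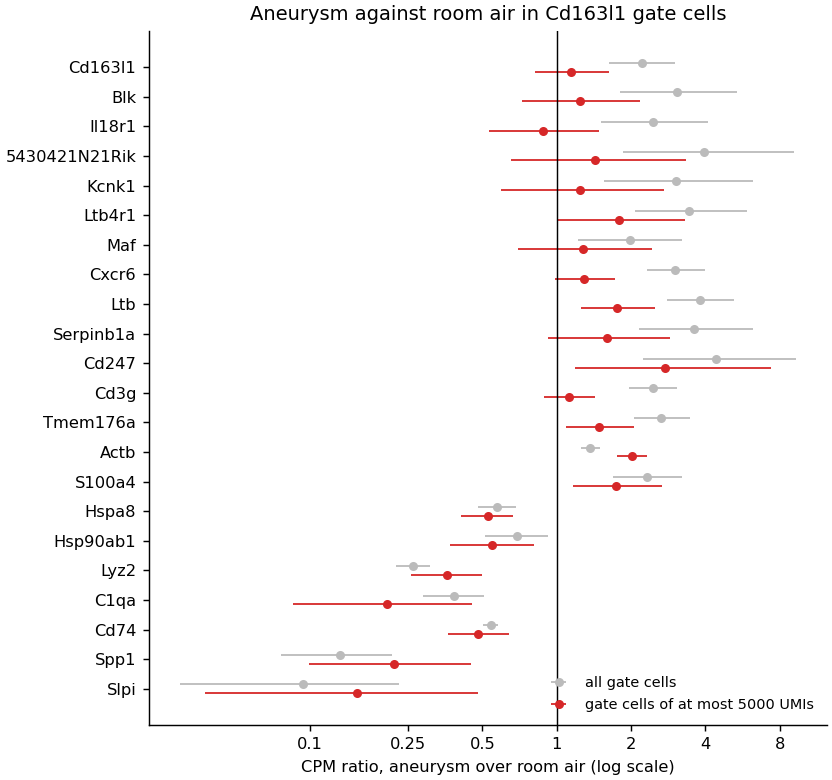
Ratio of CPM, aneurysm over room air, on a log scale for 22 genes, in all cells of the gate (grey) and in the compact cells (red), with exact 95% intervals for counting error. Cd163l1 and Cd3g, which the gate used, are shown as a description. The markers at the top lie right of 1 in grey and near 1 in red, while Ltb, Cd247 and Actb lie right of 1 and the heat shock and myeloid genes left of 1 in both colours.

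Among cytokine genes 1 of 21 could be measured in the compact cells. Ltb, lymphotoxin beta, which organises lymphoid tissue, had 0 to 8 UMIs per cell in room air (median 2) and 1 to 19 in aneurysm (median 3.5). It was at 1148 CPM in room air against 2011 CPM in aneurysm, a ratio of 1.75 (95% interval 1.25 to 2.49), with overlapping ranges of cells. In CD8 T cells Ltb was at 812 and 803 CPM. Il17a, the cytokine these cells are known for, had 7 UMIs in 3 of 17 cells in room air and 3 UMIs in 1 of 26 in aneurysm, a ratio of 0.265 (95% interval 0.0442 to 1.16). Csf2, the growth factor GM-CSF, had 0 and 4 UMIs, and Tnf 2 and 7. Il17f, Il21, Il22, Ifng, Il4, Il5, Il10, Il13, Areg and Ccl20 had 0 UMIs, which in the compact cells allows up to 71.7 CPM in room air or 44.4 CPM in aneurysm (3 counts over the sum). The depth could not show a difference in these cytokines.

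Of 11 measured genes for chemokine receptors and adhesion, 3 were called higher and 0 lower in the compact cells, beside 13.4% of all measured genes each way, with a median log2 ratio of 0.37. The first was Ltb4r1, the leukotriene B4 receptor, at 406 CPM in room air against 725 CPM in aneurysm, a ratio of 1.78 (95% interval 1.01 to 3.30). The others were the integrin beta chains Itgb1, with a ratio of 2.10 (95% interval 0.745 to 7.29), and Itgb2, with 1.51 (95% interval 0.669 to 3.73), so that their intervals included 1. Cxcr6, the receptor for the membrane-bound chemokine CXCL16, was at 1841 CPM in room air against 2381 CPM in aneurysm, a ratio of 1.29 (95% interval 0.980 to 1.72). Ccr2, the receptor that draws cells to CCL2, was at 861 CPM in room air against 725 CPM in aneurysm. Over the whole gate 8 of 13 were called higher and 1 lower, beside 19.0% and 17.7% of all measured genes.

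Among cytokine receptors, a list that holds the marker Il18r1, 0 of 4 were called higher and 1 lower in the compact cells. Of all measured genes 13.4% were called each way there. Over the whole gate 3 of 5 were called higher and 0 lower, beside 19.0% and 17.7% of all measured genes. The gene called lower was Il2rg, the common gamma chain, at 406 CPM in room air against 222 CPM in aneurysm, with a ratio of 0.546 (95% interval 0.254 to 1.16). Il7r, which transmits the survival signal of interleukin 7, was at 478 CPM in room air against 488 CPM in aneurysm. Il12rb1, a chain shared by the receptors for interleukins 12 and 23 and named after its values were seen, had 0 UMIs in room air and 8 in aneurysm, each in another cell. Set against an assumed floor of 3 counts over the room air sum, the aneurysm level of Il12rb1 was 1.65-fold that floor. This value leaves out counting error, so it is not a lower limit of the ratio. The UMIs of Il12rb1 were also too few for it to count as measured.

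In the receptor signalling list 1 of 11 measured genes was called higher and 4 lower in the compact cells, with a median log2 ratio of 0.07. Over the whole gate 7 of 13 were higher and 1 lower, with a median of 1.01. Of all measured genes 13.4% were called each way in the compact cells, and 19.0% and 17.7% over the whole gate. The list holds Cd3d, Cd3e and Cd3g, which the gate used, and the marker Blk, so nothing is read from its counts and medians. Cd247, the zeta chain of the receptor complex, was at 167 CPM in room air against 458 CPM in aneurysm in the compact cells, a ratio of 2.74 (95% interval 1.18 to 7.37). Fcer1g, which can take the place of the zeta chain and is also abundant in myeloid cells, was at 502 CPM in room air against 237 CPM in aneurysm, a ratio of 0.471 (95% interval 0.230 to 0.948). It also differed in B cells, at 1642 and 799 CPM, and the part of free RNA in its ratio was not tested. Lat, the adaptor that relays the receptor signal, was at 741 CPM in room air against 1094 CPM in aneurysm, a ratio of 1.48 (95% interval 0.959 to 2.32).

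Of the fixed list of S100 and cytoskeletal genes 4 of 21 were called higher in the compact cells and 1 lower, with a median log2 ratio of 0.18. With 13.4% of all measured genes called each way, nothing is read from these counts, and the list's median over the whole gate went from 0.21 to -0.12 where 2 Cd163l1 UMIs were required. Actb, cytoskeletal actin, was at 6120.0 CPM in room air against 12333 CPM in aneurysm, a ratio of 2.02 (95% interval 1.75 to 2.33), and at 7990.3 and 6629 CPM in CD8 T cells. S100a4, a calcium-binding protein of motile cells, was at 789 CPM in room air against 1375 CPM in aneurysm, a ratio of 1.74 (95% interval 1.16 to 2.68). Tln1, talin, which couples integrins to actin, had 3 and 25 UMIs, a ratio of 5.15 (95% interval 1.57 to 26.7). Arpc5, a subunit of the actin-branching complex, had a ratio of 2.39 (95% interval 1.34 to 4.54). Tmem176a, which encodes a membrane protein of intracellular vesicles, was at 1410.5 CPM in room air against 2099.9 CPM in aneurysm, a ratio of 1.49 (95% interval 1.09 to 2.05). Tln1 and Arpc5 were not on the list but among the 12 genes leading by their interval, which also included Gnb1, Atp6v1f, Fgfr1op2, Anxa11, 1810058I24Rik, Actb, Ltb, Cd247 and the mitochondrial mt-Nd5, which had 1 UMI in room air and 19 in aneurysm.

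Of 5 interferon-response genes measured in the compact cells, 2 were called higher and 1 lower, beside 13.4% of all measured genes each way. Ly6a, also called Sca-1, was at 119.5 CPM in room air against 355 CPM in aneurysm, a ratio of 2.97 (95% interval 1.11 to 9.96). Slfn2 had a ratio of 1.94 (95% interval 0.802 to 5.39) and Ifi203 of 0.619 (95% interval 0.231 to 1.66), so both intervals included 1, and Ly6e was below the fold at 1.48 (95% interval 1.11 to 1.99). In oxidative phosphorylation 5 of 21 genes were higher and 2 lower, beside 13.4% of all measured genes each way, with a median log2 ratio of 0.06. Of 7 glycolytic genes 1, Aldoa, was higher with a ratio of 1.79 (95% interval 1.03 to 3.25), and 1, Pfkp, was lower with an interval that included 1.

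Heat shock genes, which code for chaperones of protein folding, were lower in aneurysm. In the compact cells 5 of 6 measured members were called lower and 0 higher, beside 13.4% of all measured genes each way, with a median log2 ratio of -0.90 against 0.04 over all measured genes. Hspa8, the constitutive Hsc70 chaperone, was at 3609.8 CPM in room air against 1893 CPM in aneurysm, a ratio of 0.524 (95% interval 0.411 to 0.668). Hsp90ab1, the co-chaperone Dnaja1 and the mitochondrial chaperonin gene Hspe1 had ratios of 0.545, 0.520 and 0.506, and their intervals excluded 1. The list of 13 genes summed to 8295 CPM in room air, to 4584 CPM in aneurysm and to 3786 CPM in control. Single cells spanned 1909.8 to 17153 CPM (median 8141) in room air but 1985 to 9084 CPM (median 4184) in aneurysm, so they overlapped. The same list was at 7046 and 3838 CPM in CD8 T cells and at 6828 and 3342 CPM in B cells. It thus differed between the libraries in each of these lymphocytes. Of 6 immediate early genes, which cells switch on within minutes of handling or stimulation, 0 were higher and 3 lower, with a median log2 ratio of -0.59. The direction of that list turned with the gate, since over the whole gate its median was -0.20, and 0.49 where 2 Cd163l1 UMIs were required.

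**Figure D5:**
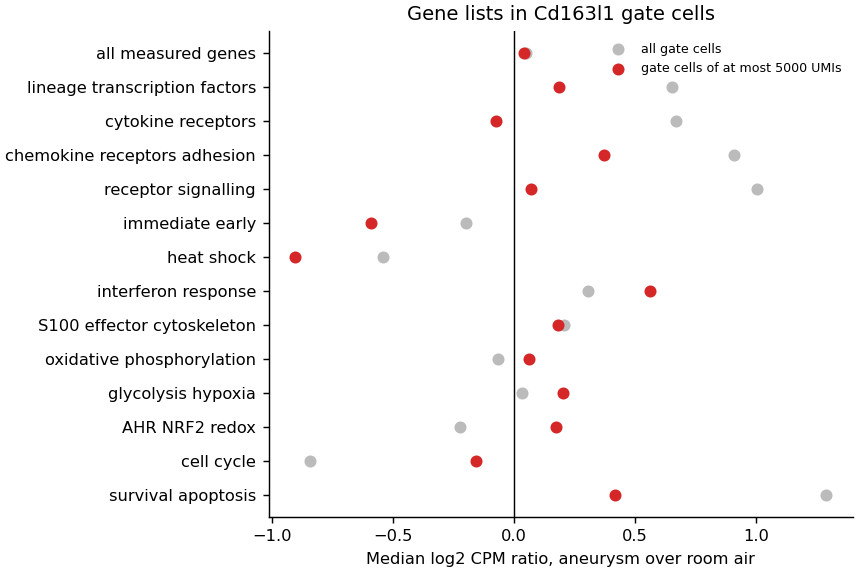
Median log2 ratio of CPM, aneurysm over room air, in all cells of the gate (grey) and in the compact cells (red). Shown are all measured genes and each gene list with at least 3 measured genes in both sets of cells. Lists short of that in the compact cells are not drawn, such as the cytotoxic and type 1 genes (-2.18 over the whole gate). Heat shock lies lowest in red. The lists of receptor signalling and of cytokine receptors move from the right in grey to near 0 in red. The receptor signalling list holds the Cd3 genes that the gate used, so its points are a description.

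Of the 12 genes that led the lower side in the compact cells, 9 are genes of macrophages or antigen-presenting cells (Spp1, C1qa, C1qc, Slpi, Lyz2, Ctss, Ccl8, H2-Ab1 and Cd74). In the compact cells C1qa was at 645 CPM in room air against 133 CPM in aneurysm, with a ratio of 0.206 (95% interval 0.0853 to 0.452). Lyz2 was at 2462 CPM in room air against 887 CPM in aneurysm and Spp1, the secreted osteopontin, at 741 CPM in room air against 163 CPM in aneurysm. Slpi, a secreted protease inhibitor, had a ratio of 0.155 (95% interval 0.0376 to 0.479). The same genes differed in CD8 T cells, with ratios of 0.194 for C1qa, 0.289 for Lyz2, 0.285 for Spp1 and 0.138 for Slpi. All 8 macrophage markers were detected in room air and 7 of 8 in aneurysm. Their sum was 2343 and 695 CPM in the compact cells, and 5046 and 2246 CPM in B cells, so that it differed between the libraries in cells of another lineage too. The part of free RNA in these ratios was not tested in the compact cells. The class II genes H2-Ab1 and Cd74 had ratios of 0.421 and 0.481. Ccl5, a chemokine of cytotoxic cells, was at 430.3 CPM in room air against 88.7 CPM in aneurysm, and at 11375 and 3874 CPM in CD8 T cells. Gm11808 and Lamtor2 completed the 12, with ratios of 0.366 and 0.278.

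The control library held too few cells for a comparison. Its 4 cells had 1945 to 3756 UMIs and 10038 in all, with 2 to 3 UMIs of Cd163l1 each. Blk or Il18r1 was found in 3 of them. One of those 3, the cell with the most UMIs, had 2 Il18r1 UMIs but 1 Cd3 UMI beside 69 UMIs of the C1q genes, and the other cells had 14 to 18 Cd3 UMIs and 0 or 1 of the C1q genes. Cd163l1 summed to 10 UMIs, Blk to 2, Il18r1 to 3, Kcnk1 to 5, Cxcr6 to 12 and Pdcd1, the inhibitory receptor PD-1, to 10. 5430421N21Rik, Il17a and Il17re were at 0 UMIs, each of which allows up to 299 CPM.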

How the data were processed

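Single-cell RNA was measured in 3 libraries, 1 per group. The deposited values are counts, whole numbers of UMIs per gene and barcode with no normalization. The libraries used the 10x 3′ v2 kit, per the labels' protocols, and the submitters' processing notes name Cell Ranger, STAR and the mm10 build; versions are not given in the sources used here. Totals ran from 2568192 to 16698309 UMIs over 27998 genes.

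Barcodes with at least 200 genes and at most 10% mitochondrial UMIs were kept (778, 1848 and 2839 of 782, 1851 and 2842). Members, limits and gene lists were chosen with earlier results of these data known. UMIs were summed over the gate cells of a library and given as CPM of that sum; a gene was measured at 20 UMIs over both sums and called past 1.5-fold. Ratios carry exact conditional binomial intervals, levels exact Poisson and shares exact Clopper-Pearson intervals, all for counting error only. CD4 T, CD8 T, NK, B and macrophage barcodes were gated by UMIs of their defining genes, without Cd163l1 in the lymphocytes. Scrublet's automatic threshold marked 1, 2 and 0 barcodes and was not used; removing the highest scores up to 0.8% per 1000 barcodes was an alternative (5, 27 and 65 barcodes, among them 1 gate cell).

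Named were the marker and cytokine genes; up to 4 genes per list with the largest ratio whose interval excluded 1; the 12 higher and 12 lower genes whose interval lay farthest from 1; and the 12 genes highest against CD4 and CD8 T cells in room air. A few genes the rules reach are not reported here, and the lists were summed without them. Others are named to account for small counts or for their role, after their values were seen. T cell receptor genes were not analysed here, so checks and alternatives that needed them were not run. In the fixed design 5430421N21Rik stood as a second scavenger receptor gene; the annotation gives it as Krt83, and 5830411N06Rik was used in its place. The 5000-UMI limit and a wider gate were added after seeing the data. The ratio code was tested on simulated data. Python 3.11.15, numpy 2.4.6, scipy 1.17.1, pandas 2.3.3 and scanpy 1.11.5 were used.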

Additional observations from a re-analysis of the deposited data

Results flagged for a closer look

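S100a4, Tln1 and Ltb4r1 had ratios on opposite sides of 1 in the compact cells (those of at most 5000 UMIs) and in another T cell class of the same libraries. S100a4 had an aneurysm over room air ratio of 1.74 in the compact cells and 0.444 in CD8 T cells. Tln1, talin, had 5.15 (95% interval 1.57 to 26.7) against 0.640 in CD8 T cells. Ltb4r1, the leukotriene B4 receptor, had 1.78 in the compact cells, while CD4 T cells had 64.6 CPM in room air and 0 in aneurysm. These differences were not tested, since the design has no replicate.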

How the results depend on the processing

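The number of measured genes changes with the setting, so counts are given beside it (355 higher and 330 lower of 1865 as reported). With 2 or more Cd163l1 UMIs required, the room air share of kept barcodes was 0.812%. Of 985 measured genes 135 were then higher and 125 lower, and 4 of 13 gene lists had a median past 1.5-fold (8 of 17 as reported). Without barcodes of over 5000 UMIs the aneurysm share was 1.68%, with 117 higher and 117 lower of 872 genes and 2 of 13 lists. With median of ratios size factors added, the values were 101, 125 and 2. Allowing 1 UMI of Cd8 and of Cd79a at that limit gave shares of 2.17% and 1.87%, with 144 higher and 140 lower of 1088 genes and 1 of 13 lists. Fewer than 2 UMIs of the C1q genes and Lyz2 left 0% of room air and 0.106% of aneurysm barcodes, too few to compare genes. Of Cd3 barcodes the shares were 2.65%, 3.09% and 2.90%. A minimum of 10 UMIs gave 832 and 724 of 3540 genes, and 50 UMIs 89 and 124 of 741 with 4 of 12 lists. No minimum gave 1953 (19.2%) and 1469 (14.5%) of 10147 genes, with 0 of 19 lists. A fold of 2 gave 156 and 175 of 1865. Weighing each cell the same gave 5 lists. Free RNA subtraction gave 653 higher genes of 1862. The other 41 values of shares and counts stayed within 1.5 times the reported count or within the interval of the share.

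Of 814 ratios and list medians under the alternatives, 50 lay on the other side of no difference, 21 of them for values past 1.5-fold as reported (for genes, with an interval that excluded 1). The median log2 ratio of transcription factors was -0.0777 with 2 Cd163l1 UMIs and -0.0408 in the wider gate, where receptor signalling was -0.0238. Cytokine receptors were at -0.0744 in the compact cells and -0.118 with size factors. With no minimum the naive list was at 0.145 and the survival list at -0.0316. Il18r1 had a ratio of 0.884 in the compact cells, 0.911 in the wider gate and 0.857 with size factors. With 2 Cd163l1 UMIs the ratios were 0.990 for Cd163l1, 1.04 for Psap, 0.982 for Podnl1, 0.961 for Actn2, 0.839 for F2r and 2.70 for Cd74, where 1 aneurysm barcode of 9109 UMIs remained. Actn2 was at 0.960 in the compact cells and 0.931 with size factors, and F2r at 0.780, 0.757 with size factors and 0.922 in the wider gate. The other 29 included Aqp3 (1.96 as reported) at 0.787 in the compact cells, 0.827 with 2 Cd163l1 UMIs, 0.715 in the wider gate and 0.764 with size factors, and H2-Ab1 at 2.00 with 2 Cd163l1 UMIs. They also included the immediate early list (-0.196 as reported), at 0.488 with 2 Cd163l1 UMIs and 0.160 with free RNA subtracted, and the S100 list (0.208), at -0.115 with 2 Cd163l1 UMIs. The cause was not tested. No paired analysis was possible because each group is 1 library. Alternatives that needed T cell receptor genes were not run. Depth limits genes under 20 UMIs, cytokines included.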

Other observations

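Genes of survival and restraint were also measured. Bcl2, which protects cells from apoptosis, was at 406 CPM in room air against 606 CPM in aneurysm in the compact cells, a ratio of 1.49 (95% interval 0.829 to 2.80), beside 425 and 409.9 CPM in CD8 T cells. Pdcd1, the inhibitory receptor PD-1, was at 335 CPM in room air against 429 CPM in aneurysm, a ratio of 1.28 (95% interval 0.656 to 2.62). In CD8 T cells Pdcd1 was at 119.6 and 28.7 CPM. Serpinb1a was at 454 CPM in room air against 725 CPM in aneurysm, a ratio of 1.60 (95% interval 0.922 to 2.87). Id3 had 7 UMIs over the whole gate in room air and 0 in aneurysm, and 1 UMI in the compact cells of room air. Gata3, a factor of type 2 lymphocytes, had 2 UMIs in 2 compact cells of room air and 11 UMIs in 9 of aneurysm, a ratio of 3.40 (95% interval 0.743 to 31.6). The list of 21 genes for lipid uptake and sterol synthesis had 0 measured members in the compact cells.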
